A study of Mus musculus with 9 samples.

Results

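Carbonic anhydrases are zinc enzymes that interconvert carbon dioxide and bicarbonate with release or uptake of a proton. Car4 and 5 other members of the family (Car1, Car2, Car5b, Car12 and Car13) were examined in mouse leukaemia cells after knockdown of Brg1. They were found by symbol in the platform annotation, where each of the 6 genes had 1 probe set of its own and no probe set shared with another gene, out of 19937 named genes. Car4 was picked because its fall against the control was the largest of all named genes, so its values against the control are given as a description with no test. The cells were RN2, an acute myeloid leukaemia line that the labels call MLL-AF9/NrasG12D, with an inducible hairpin RNA delivered by the vector TRMPV. The knockdown groups carried the hairpins Brg1sh_3232, Brg1sh_3364 and Brg1sh_4935, with 2 arrays each, and the control carried a hairpin against Renilla luciferase (Rluc), with 3 arrays. Every culture, control included, received 1 ug/ml doxycycline for 96 h, so no array shows cells without doxycycline. The labels add the term TtTMPV to the cell line name of the control arrays alone, and this difference cannot be told apart from the hairpin. Nothing states that arrays of a group came from separate cultures, and the p-values below therefore speak of the spread between arrays, part or all of which may be technical.

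The members differ mainly in where the enzyme sits. Car4 is held on the outer face of the plasma membrane by a lipid anchor, and Car12 spans that membrane with its catalytic domain outside. Car1, Car2 and Car13 are cytosolic, Car1 and Car2 being abundant in red cells and Car2 also serving acid secretion by osteoclasts, while Car5b is mitochondrial. Brg1, encoded by Smarca4, is an ATPase of the SWI/SNF chromatin remodelling complex.

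Levels came from 9 Affymetrix whole-transcript arrays as log2 expression made with RMA, and every level below is on that log2 scale, on which 1 unit is a doubling. Array medians lay between 7.39 and 7.49, correlations across genes were 0.998 to 0.999 within a group and 0.991 to 0.998 between groups, and no array stood apart. Smarca4 read 10.67 and 10.90 with Brg1sh_3232, 10.78 and 10.81 with Brg1sh_3364 and 10.70 and 10.76 with Brg1sh_4935, against 11.79, 11.77 and 11.79 with Rluc. The groups did not overlap, and the mean over hairpins minus Rluc was -1.01 (SE 0.05, limma adjusted p = 2.22e-06). In the knockdown arrays 50.03%, 50.3% and 48.2% of the control signal remained with Brg1sh_3232, Brg1sh_3364 and Brg1sh_4935. All 15 myeloid leukaemia markers were measured, with mean levels of 9.71 to 13.9, against 4.80 to 7.01 for the 10 lymphoid markers measured, although levels of different probe sets compare only roughly.

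The start of Car4 is shown because Car4 is the member whose RNA moved. The RefSeq sequence for assembly GRCm38.p6, plus strand, chr11:84957504-84957803, runs from 250 bases before to 50 bases after the annotated start, and capitals mark the TATA box motif.
Car4: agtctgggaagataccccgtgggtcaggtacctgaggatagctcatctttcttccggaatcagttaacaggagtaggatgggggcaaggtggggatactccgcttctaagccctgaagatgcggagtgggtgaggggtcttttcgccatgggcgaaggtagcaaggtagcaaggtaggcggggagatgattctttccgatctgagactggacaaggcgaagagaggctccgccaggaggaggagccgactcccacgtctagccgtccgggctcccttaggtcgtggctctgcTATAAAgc

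The window was searched on both strands for 8 motifs, spelled here with their share of all 32851 mouse promoters of that length in the table. They were PU.1 (GAGGAA, 28.3%), C/EBP (TTGCNNAA, 10.8%), RUNX (TGTGGT, 16.8%), E-box (CACGTG, 7.15%), AP-1 (TGANTCA, 7.81%), TATA box (TATAAA, 13.6%), CCAAT box (CCAAT, 37.4%) and GC box (GGGCGG, 35.7%). The TATA box letters were found once, on the plus strand at bases 293 to 298, which is past the annotated start. The other 7 sets of letters were not in this window. Among the other members, the table held Car5b, with 1 CCAAT box and 2 GC boxes, and Car12, with 1 RUNX motif and 1 GC box. These matches describe letters only, since no binding was measured.

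Car4 was lower than in the control with every hairpin, and lowest with Brg1sh_3232. It read 6.99 and 7.39 with Brg1sh_3232, 9.71 and 9.53 with Brg1sh_3364 and 9.16 and 9.22 with Brg1sh_4935, against 11.67, 11.64 and 11.80 with Rluc. Every knockdown array was below every control array, and the arrays of the 3 hairpins did not overlap with each other either. The mean over hairpins minus Rluc was -3.03 (SE 0.09), an 8.19-fold lower signal. This SE reflects the spread between arrays within a group and leaves out the spread between hairpins. The next largest falls over all genes were -2.63 (Hao1), -2.56 (Nkg7) and -2.41 (Fads2). The difference from Rluc was -4.51 with Brg1sh_3232 (22.8-fold lower), -2.08 with Brg1sh_3364 (4.24-fold lower) and -2.51 with Brg1sh_4935 (5.70-fold lower), each with an SE of 0.11. These 3 differences share the control arrays. Both Car4 readings with Brg1sh_3232 lay below the median level of the named genes, 7.80. Without detection calls it is not known whether they stood above background, so the size of folds that rest on them is uncertain. The mean is carried unequally by the hairpins, being -2.30 without Brg1sh_3232, -3.51 without Brg1sh_3364 and -3.30 without Brg1sh_4935. Of all genes, 12.1% had every knockdown array below every control array, a share that says nothing of Car4 because it was chosen for its fall. In bulk RNA, fewer cells that express Car4 and less Car4 RNA per cell cannot be told apart.

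**Figure D1:**
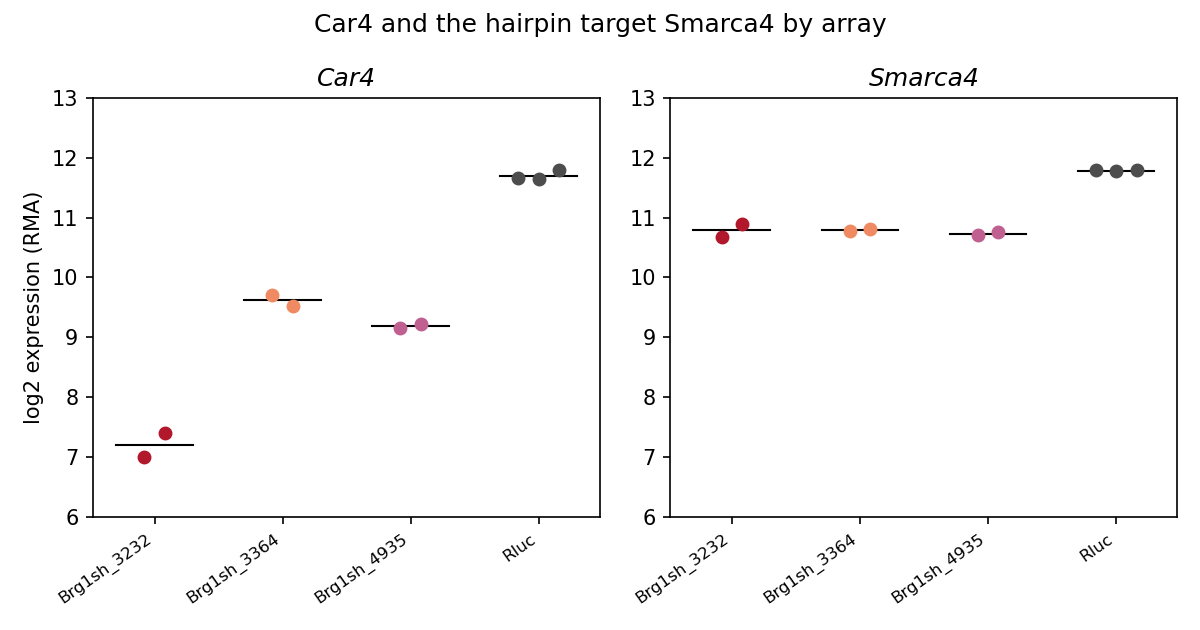
Log2 RMA level of Car4 and of Smarca4 on each array (points), with group means (bars), for the 3 Brg1 hairpins and Rluc. Car4 lies between 6.99 and 9.71 in the knockdown arrays and between 11.64 and 11.80 in the control arrays, and it is lowest with Brg1sh_3232, whereas Smarca4 lies between 10.67 and 10.90 with the 3 hairpins.

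The differences among hairpins do not involve the control level and were tested, with the spread estimated over all 9 arrays, control arrays included. The same knockdown arrays entered the choice of Car4, so for Car4 these tests are not independent of that choice. Car4 differed among the 3 hairpins (moderated F test, limma adjusted p = 5.32e-05), in a test that called 10.5% of all genes. It was lower with Brg1sh_3232 than with Brg1sh_3364 by 5.37-fold (log2 -2.42, SE 0.12, limma adjusted p = 2.47e-05), in a contrast that called 9.66% of genes. It was 3.99-fold higher with Brg1sh_4935 than with Brg1sh_3232 (log2 1.998, SE 0.12, limma adjusted p = 0.00082), where 1.02% of genes were called. Brg1sh_4935 minus Brg1sh_3364 gave -0.43 (95% interval -0.70 to -0.15, limma adjusted p = 0.071), which missed the threshold in a contrast that called 7.61% of genes. It also missed the threshold under 13 of 19 alternatives, with an adjusted p of up to 0.355. That difference passed it without either array of Brg1sh_3232 (adjusted p = 0.0224 each) or both, without dim genes (0.0374), after centring each array on its median (0.033) and with array weights (0.0261). For Smarca4 the F test among hairpins missed the threshold (limma adjusted p = 0.802), and the 3 differences between hairpins had 95% intervals within -0.22 and 0.15.

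The other 5 members did not move detectably. None of the 5 was called in the mean over hairpins minus Rluc by limma, in a comparison that called 28.3% of all genes, and none had an unadjusted p below 0.05. Their differences lay between -0.078 and 0.080, and the 95% intervals of all 5 lay within -0.20 and 0.21. For each of them the knockdown and control arrays overlapped, whereas 22.8% of all genes had knockdown arrays apart from the control arrays.

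**Figure D2:**
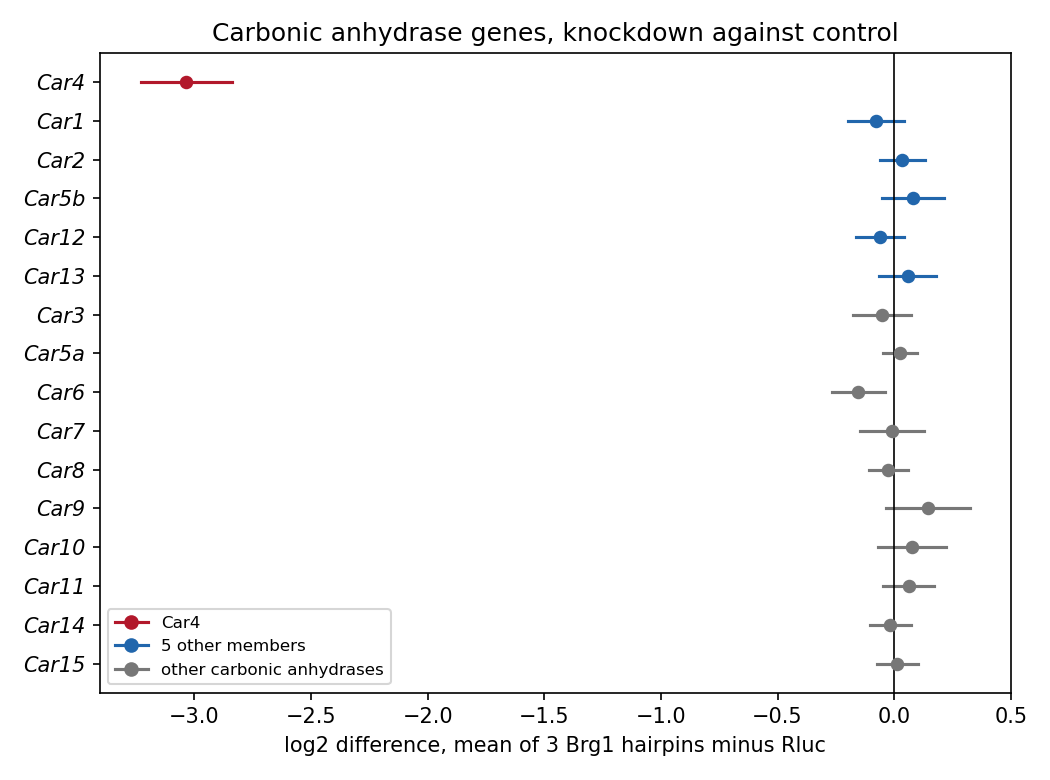
Log2 difference of each carbonic anhydrase, mean of the 3 Brg1 hairpins minus Rluc (points), with 95% intervals. Car4 lies at -3.03 and the 5 other members lie between -0.078 and 0.080. The 10 other carbonic anhydrases lie between -0.15 and 0.14.

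Among the cytosolic enzymes, Car1 read 6.61 and 6.68 with Brg1sh_3232, 6.52 and 6.68 with Brg1sh_3364 and 6.74 and 6.68 with Brg1sh_4935, against 6.68, 6.68 and 6.83 with Rluc. Its difference was -0.078 (SE 0.05, limma adjusted p = 0.352). Car2 read 5.80 and 5.78, then 5.79 and 5.80, then 5.85 and 5.83 with those hairpins in the same order, against 5.77, 5.69 and 5.86 with Rluc, a difference of 0.035 (SE 0.04, adjusted p = 0.637). For both genes the knockdown and control arrays overlapped. Car13 read 5.82 and 5.81 with Brg1sh_3232, 5.78 and 5.76 with Brg1sh_3364 and 6.02 and 5.93 with Brg1sh_4935, against 5.72, 5.94 and 5.74 with Rluc. Its difference was 0.057 (SE 0.05, adjusted p = 0.528), and the highest control array lay above 5 of the 6 knockdown arrays. Brg1sh_4935 alone gave 0.18 for Car13 (adjusted p = 0.108), and this was called at 0.25 without Rluc replicate 2 (adjusted p = 0.0129).

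The mitochondrial Car5b read 5.60 and 5.65 with Brg1sh_3232, 5.93 and 5.65 with Brg1sh_3364 and 5.67 and 5.68 with Brg1sh_4935, against 5.59, 5.67 and 5.58 with Rluc. One array of Brg1sh_3364 stood above the rest, and the difference over hairpins was 0.080 (SE 0.06, limma adjusted p = 0.403). Without replicate 2 of Brg1sh_3364 it was 0.13, and the difference with Brg1sh_3364 alone was 0.31. That hairpin then has only the array that stood above the rest, so the sizes alone are given. The membrane-spanning Car12 read 6.29 and 6.40, then 6.29 and 6.29, then 6.29 and 6.25 with the hairpins in the order above, against 6.33, 6.31 and 6.45 with Rluc, a difference of -0.061 (SE 0.04, adjusted p = 0.400). Over all 9 arrays the 5 members spanned 0.168 to 0.346.

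With single hairpins, none of the 15 differences of the 5 members from Rluc was called by limma, and 2 had an unadjusted p below 0.05 (Car13 with Brg1sh_4935 and Car5b with Brg1sh_3364). Those contrasts called 20.8% of genes for Brg1sh_3232, 25.7% for Brg1sh_3364 and 22.1% for Brg1sh_4935. None of the 5 differed among hairpins by the F test, where the adjusted p was 0.210 to 0.810 and no unadjusted p was below 0.05, and none of 15 hairpin pairs was called. All 5 read below the median level of the named genes, 7.80, and without detection calls it is not known whether their RNA was above background. Deposited values repeated between arrays, 4 of the 9 arrays sharing 1 value for Car1 and 4 for Car12, and 29.8% of all genes had 3 or more equal arrays.

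**Figure D3:**
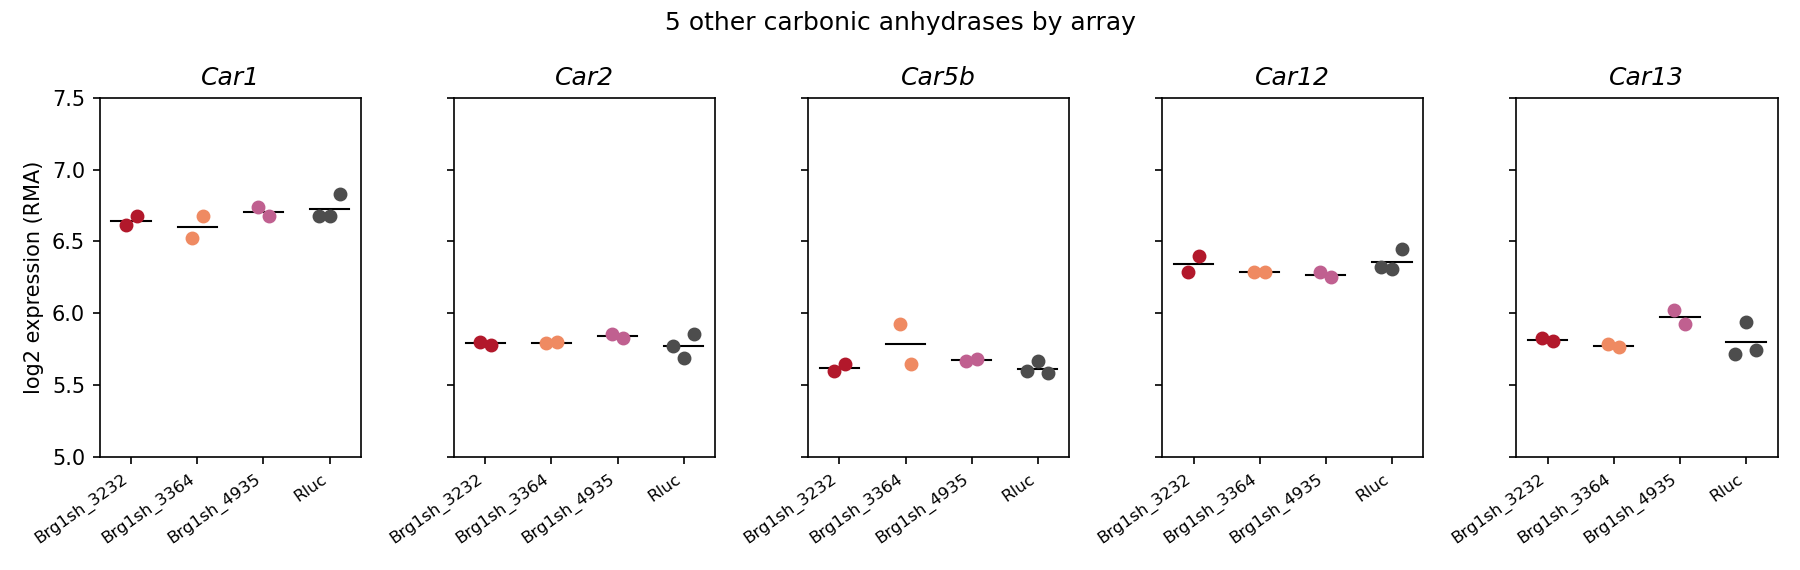
Log2 RMA level of Car1, Car2, Car5b, Car12 and Car13 on each array (points) with group means (bars), hairpins left of Rluc. Knockdown and control arrays overlap in all 5 panels, and each gene spans 0.168 to 0.346 over the 9 arrays.

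The rest of the family also read near its control level. Of these 10 genes, 9 averaged below the median level of the named genes, Car6 among them. Without detection calls it is not known whether their RNA was above background. Of the 10 other carbonic anhydrases, none rose, 1 fell and 9 did not pass the test, and 1 of the 10 had an unadjusted p below 0.05, with a median difference of 0.0020 beside -0.0004 over all genes. Car6, the secreted enzyme of saliva, was the 1 that fell (log2 -0.15, SE 0.05, limma adjusted p = 0.0459). Its arrays overlapped between knockdown and control, and its call was lost without any 1 array other than Rluc replicate 3 (adjusted p 0.0675 to 0.168). It was lost, too, when hairpins formed a random block (adjusted p = 0.255). With single hairpins 1 of 30 differences of these genes was called, that of Car6 with Brg1sh_3364 (-0.24, adjusted p = 0.0217). Car9, a membrane enzyme induced through hypoxia-inducible factor (HIF), read 9.69 to 10.05 in the knockdown arrays (median 9.80), against 9.65, 9.79 and 9.68 with Rluc. These groups overlapped, and the difference of 0.14 (SE 0.08, adjusted p = 0.245) missed the threshold, although it passed without replicate 1 of Brg1sh_3232 (0.20, adjusted p = 0.0327). None of these 10 genes differed among hairpins by the F test (smallest adjusted p 0.118, 1 unadjusted p below 0.05).

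Car13, Car1, Car3 and Car2 follow each other in the RefSeq gene order, and none of the 4 was called by limma (none at an unadjusted p below 0.05). The genes next to Car4 in that order were mixed: of 3 on either side, 1 rose, 2 fell and 3 were not called, where 13.3% of all genes rose and 15% fell. Znhit3, next to Car4 on one side, read 7.84 to 8.15 in the knockdown arrays (median 7.91), against 8.42, 8.42 and 8.40 with Rluc, a log2 difference of -0.45 (SE 0.06, limma adjusted p = 0.000327). Usp32, a ubiquitin-specific protease gene next to it on the other side, rose by 0.23 (SE 0.03, adjusted p = 0.000895). Myo19, an unconventional myosin, fell (log2 -0.31, SE 0.06, adjusted p = 0.00531), although not with hairpins as a random block (0.0898), and Pigw, 1700125H20Rik and Appbp2 gave -0.14, -0.04 and -0.09. Around the other members, 8 of 18 neighbours rose, 2 fell and 8 were not called, to be read beside the same shares over all genes.

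Genes whose levels followed Car4 were sought among the 435 genes whose group means spanned at least 1 log2 unit. They were chosen for this pattern, and the 9 arrays fall into 4 groups, so the correlations are a description. Nrp1, a receptor for semaphorins and vascular growth factors, was the most alike, with Pearson r = 0.99 over 9 arrays and 0.98 over the 6 knockdown arrays. It read 7.17 and 7.35 with Brg1sh_3232, 7.91 and 7.90 with Brg1sh_3364 and 7.67 and 7.74 with Brg1sh_4935, against 8.42, 8.45 and 8.31 with Rluc. As for Car4, Brg1sh_3232 was lowest, Brg1sh_3364 the least reduced, and Rluc highest.

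Muc13, a membrane mucin, had r = 0.97 and differed from Rluc by -1.94 with Brg1sh_3232, -1.31 with Brg1sh_3364 and -1.25 with Brg1sh_4935. Rpgr (r = 0.96), Il1f9, an interleukin-1 family cytokine (0.95), Inhba, an activin subunit (0.95), and Cd300e, a myeloid surface receptor (0.95), were the others. Each was lowest with Brg1sh_3232, the differences of Inhba being -1.18, -0.79 and -0.89 with the hairpins in the same order. The 4 genes most opposite to Car4 were Itgb5, an integrin subunit (r = -0.95), Il6ra (-0.93) and Il6st (-0.93), the chains of the interleukin-6 receptor, and Pld4, an endolysosomal nuclease (-0.92). Pld4 read 12.35 and 12.64 with Brg1sh_3232, 11.74 and 11.74 with Brg1sh_3364 and 12.30 and 12.33 with Brg1sh_4935, against 11.24, 11.39 and 11.27 with Rluc. It was thus highest where Car4 was lowest. Over all 435 genes the median r with Car4 was -0.48, with 13 genes above 0.9 and 10 below -0.9.

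**Figure D4:**
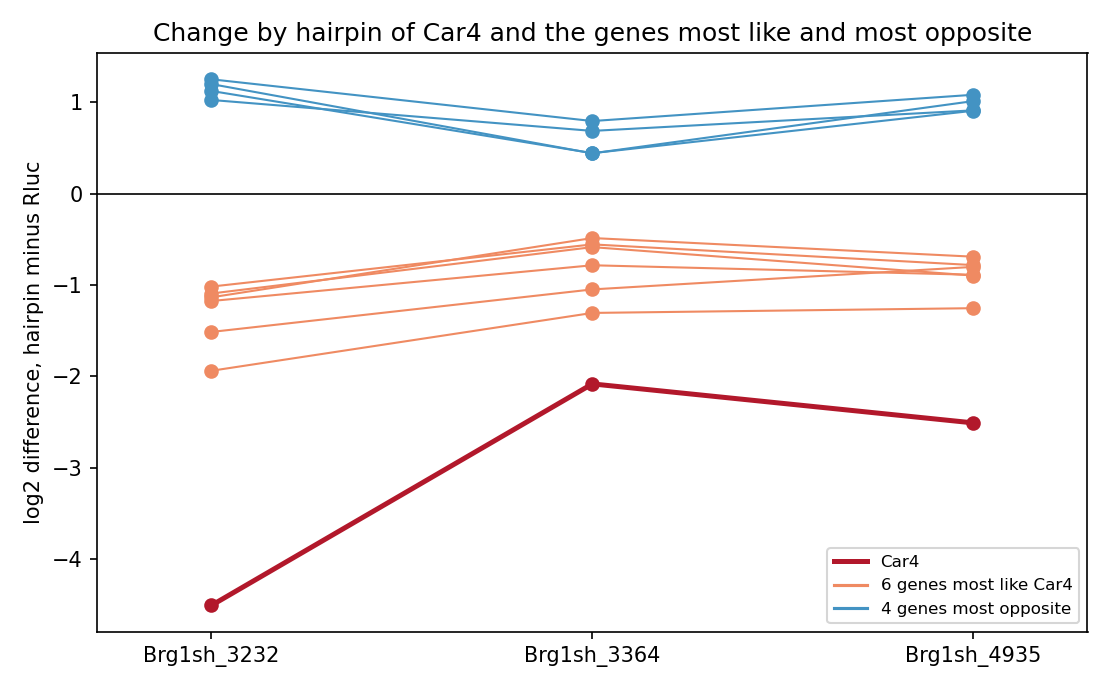
Log2 difference from Rluc with each Brg1 hairpin for Car4, the 6 genes most like it and the 4 most opposite to it, chosen by correlation over the 9 arrays, with lines joining the points of a gene. Car4 ranges from -4.51 to -2.08, Nrp1 from -1.14 to -0.49 and Pld4 from 0.44 to 1.198.

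Carbonic anhydrases work beside transporters and enzymes that carry or consume bicarbonate and protons, and genes of these lists changed in both directions. Of 20 bicarbonate transporters measured, 3 rose, 1 fell and 16 did not pass the test, with a median of 0.03. Slc26a9, an anion transporter, read 7.47 to 7.76 in the knockdown arrays (median 7.63), against 7.07, 7.01 and 7.30 with Rluc. The groups did not overlap, and it rose by 0.49 (SE 0.07, limma adjusted p = 0.000869). The exchanger Slc26a6 rose by 0.23 (SE 0.05, adjusted p = 0.00798) and Slc26a11 by 0.20 (SE 0.06, adjusted p = 0.0260). Cftr, the chloride and bicarbonate channel, fell (log2 -0.48, SE 0.09, adjusted p = 0.0038), with overlapping arrays. Slc26a9, Slc26a6, Slc26a11 and Cftr all averaged below the median level of the named genes. Without detection calls it is not known whether their RNA was above background. With the hairpin as a random block the adjusted p was 0.191 for Slc26a11, 0.198 for Cftr and 0.0701 for Slc26a6, and these calls were lost. Slc26a11 also lost its call without replicate 2 of Brg1sh_3232, either array of Brg1sh_3364, or Rluc replicate 1 or 2 (adjusted p 0.0565 to 0.0964).

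Of 18 genes of proton and lactate transport, 2 rose, 3 fell and 13 were not called. Slc16a1, the monocarboxylate transporter MCT1 that moves lactate together with a proton, read 9.29 to 9.85 in the knockdown arrays (median 9.53), against 10.49, 10.68 and 10.84 with Rluc. It fell (log2 -1.08, SE 0.08, limma adjusted p = 1.75e-05), with no overlap. Slc16a7 fell by 0.65 (SE 0.05, adjusted p = 2.72e-05) and the proton channel Hvcn1, named after its value was seen, by 0.60 (SE 0.11, adjusted p = 0.0032), although not with the hairpin as a random block (adjusted p = 0.168). The lactate exporter Slc16a3 rose by 0.31 (SE 0.03, adjusted p = 0.000199), a call that did not hold with the random block (adjusted p = 0.0915). Slc9a9, an endosomal sodium and proton exchanger, read 9.79 to 10.52 in the knockdown arrays (median 10.08), against 8.93, 9.26 and 9.08 with Rluc, a rise of 1.03 (SE 0.07, adjusted p = 1.47e-05).

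Among 14 water and gas channels, 1 rose, 2 fell and 11 were not called. Aqp9, which passes water and small solutes such as glycerol, read 10.11 to 10.68 in the knockdown arrays (median 10.40), against 8.91, 9.29 and 9.30 with Rluc, a rise of 1.23 (SE 0.08, limma adjusted p = 9.38e-06). Rhcg, an ammonia channel, fell (log2 -0.75, SE 0.05, adjusted p = 1.55e-05), and Aqp3 fell by 0.12 (SE 0.03, adjusted p = 0.0239). Both averaged below the median level of the named genes. The Aqp3 call did not hold when hairpins formed a random block (adjusted p = 0.289). It was also lost without the Brg1sh_3364 arrays (0.267) and without Brg1sh_4935 replicate 2, Rluc replicate 2 or Rluc replicate 3 (adjusted p 0.0512 to 0.0949). Of 9 enzymes that use bicarbonate, 1 rose and 2 fell. Pcca and Pccb, the subunits of propionyl-CoA carboxylase, moved apart, Pcca by -0.47 (SE 0.05, adjusted p = 0.000227) and Pccb by 0.24 (SE 0.05, adjusted p = 0.00391). Acaca, which makes malonyl-CoA for fatty acid synthesis, fell by 0.35 (SE 0.06, adjusted p = 0.00291), but not with hairpins as a random block (adjusted p = 0.150).

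The 18 HIF targets, a list without Car9, were mixed as well, with 3 up, 2 down and a median of 0.04. Ndrg1 rose by 0.70 (SE 0.04, limma adjusted p = 6.84e-06), Kdm3a, a histone demethylase, by 0.35 (SE 0.04, adjusted p = 0.000263) and Ankrd37 by 0.18 (SE 0.04, adjusted p = 0.00657). The Ankrd37 call was lost with the random block (0.0563). Egln3, an oxygen-sensing prolyl hydroxylase, fell (log2 -0.55, SE 0.05, adjusted p = 9.45e-05), and Pdk1, named after its value was seen, by 0.23 (SE 0.05, adjusted p = 0.00667). The Pdk1 call was lost with the random block (adjusted p = 0.207), and that of Egln3 when the hairpin means stood as replicates (adjusted p = 0.0583). The share of genes called was 10% in the other carbonic anhydrases, 20% in bicarbonate transporters, 27.8% in proton and lactate transport and 21.4% in water and gas channels. It was 33.3% in enzymes that use bicarbonate and 27.8% in HIF targets, beside 28.3% over all genes.

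**Figure D5:**
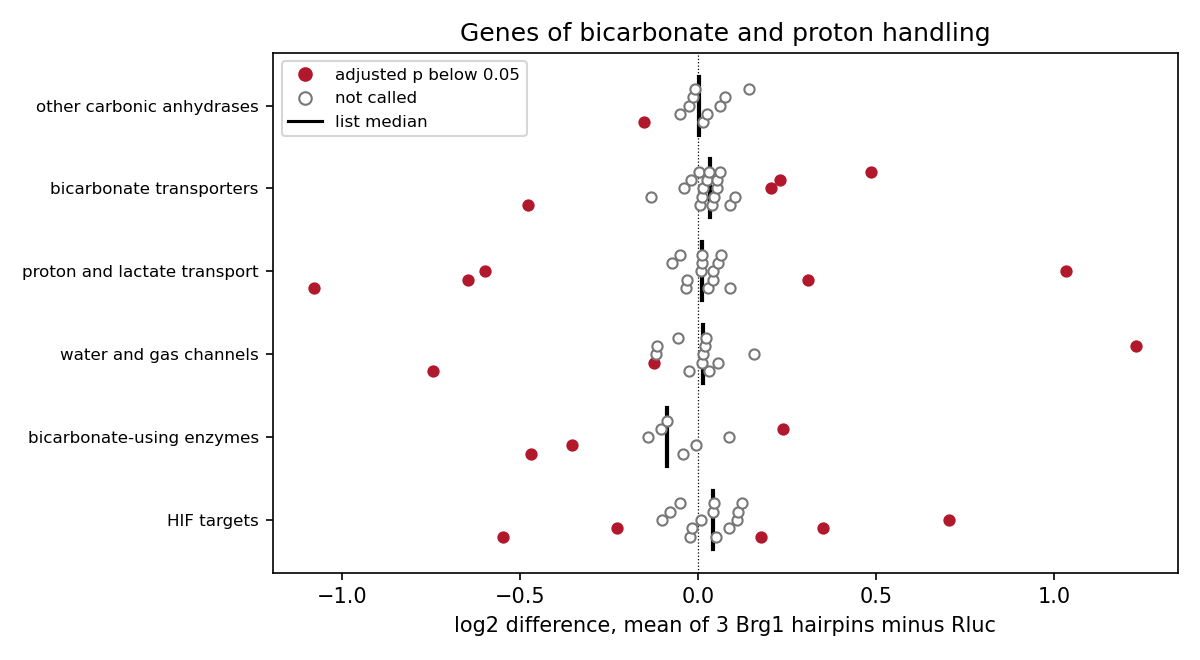
Log2 difference, mean of the 3 Brg1 hairpins minus Rluc, for each gene of 6 lists (points, filled where the limma adjusted p was below 0.05), with list medians as vertical bars. Medians lie between -0.09 and 0.04, and called genes stand on both sides of 0 in every list but that of the other carbonic anhydrases, where Car6 alone is called.

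Markers of cell types known for carbonic anhydrases were set beside these values. Of 9 erythroid markers measured, none was called by limma (none at an unadjusted p below 0.05), and their mean level was 6.52 to 6.68 over the knockdown arrays and 6.61 to 6.67 over the control arrays. The other markers of that list were not analysed here. Of 13 osteoclast markers, 4 rose, 1 fell and 8 were not called (38.5% called, beside 28.3% over all genes), and their mean level was 8.42 to 8.54 in the knockdown arrays, against 8.25 to 8.30 with Rluc. Of 15 mast cell, basophil and eosinophil markers, 3 rose and 4 fell (46.7% called), with mean levels of 7.67 to 7.80 in the knockdown arrays, against 7.48 to 7.61 with Rluc. Of the 15 myeloid leukaemia markers, 7 rose and 6 fell (86.7% called), with mean levels of 12.5 to 12.7 in the knockdown arrays, against 12.5 to 12.6 with Rluc. None of 10 lymphoid markers was called (none at an unadjusted p below 0.05), with mean levels of 5.79 to 5.89 in the knockdown arrays and 5.77 to 5.85 with Rluc. Of 11 epithelial and stromal markers, 2 rose (18.2% called), with mean levels of 7.84 to 8.09 in the knockdown arrays and 7.85 to 7.91 with Rluc. The part of these markers in the fall of Car4 was not tested.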

How the data were processed

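The authors deposited log2 expression values for 34760 probe sets on 9 arrays, which the submitters' processing notes credit to RMA, a method that corrects background, equalises array distributions and summarises probes. Its version and the genome build of the array were not given in the sources used here, so genes carry no coordinates. Scanner files, scan dates and detection calls were not used here. The number of arrays limits precision.

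Of the probe sets, 21640 had 1 gene symbol in the platform annotation, 1321 had several and 11799 had none. A gene took its probe set with the highest mean, giving 19937 genes with no filter on dim ones. Group means were fitted with limma 3.58.1 in R 4.3.3 (lmFit, eBayes, 5 residual and 3.85 prior degrees of freedom) over all 9 arrays. Contrasts were the equally weighted mean of the hairpins minus Rluc, each hairpin minus Rluc, and the hairpin pairs, with a moderated F test among hairpins. Tests were two-sided, with Benjamini-Hochberg adjustment over all genes and calls at adjusted p below 0.05. Errors of differences are standard errors (SE) from the spread of arrays within groups. The steps were tested on simulated data.

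The members and lists were chosen with earlier results of these data known. Named genes were the 6 members, Smarca4, 10 other carbonic anhydrases, up to 4 genes per pathway list with the smallest p, the 6 most and 4 least correlated with Car4 among genes spanning 1 log2 unit (predicted genes, clone names and receptor families left out), and 3 coding neighbours on either side of members in the RefSeq order of GRCm38.p6. The 12 lists were 6 pathway lists and 6 marker lists, described by counts only. Alternatives were a further quantile normalization, median centring, other probe set rules, a filter on dim genes, array weights, trended and robust eBayes, replicate and hairpin blocks, hairpin means as replicates, a threshold of 0.01, and leaving out each array or hairpin.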

Additional observations from a re-analysis of the deposited data

Results flagged for a closer look

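The 10 genes picked by their correlation with Car4 are left aside, since their hairpin pattern is what chose them. Hvcn1 and Pdk1, named after their values were seen, were not screened here. Of the other pathway and neighbour genes named above, 8 differed among the 3 Brg1 hairpins in the moderated F test, as did Car4. That test called 10.5% of all genes. Car4 and the pathway genes had been chosen by their differences from Rluc in these same arrays. This count is therefore not to be read against that share. For Car4 the limma adjusted p was 5.32e-05, with differences from Rluc of -4.51 with Brg1sh_3232, -2.08 with Brg1sh_3364 and -2.51 with Brg1sh_4935. The other genes are given with the hairpins in that order. Slc16a3 gave 0.18, 0.54 and 0.21 (adjusted p = 0.00400), and Egln3 gave -0.33, -0.89 and -0.43 (adjusted p = 0.0049), both moving most with Brg1sh_3364. Slc9a9 gave 0.99, 0.73 and 1.38 (adjusted p = 0.0122), Ndrg1 0.62, 0.56 and 0.93 (adjusted p = 0.0118), Cftr -0.41, -0.17 and -0.87 (adjusted p = 0.0228), Aqp9 0.96, 1.23 and 1.496 (adjusted p = 0.0429) and Acaca -0.09, -0.44 and -0.53 (adjusted p = 0.0301), each moving most with Brg1sh_4935. Appbp2, a neighbour of Car4, gave -0.20, 0.06 and -0.12 (adjusted p = 0.0409) and was not called against Rluc over the hairpins.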

How the results depend on the processing

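Car4 differed among hairpins under all 21 alternatives run (F test adjusted p 2.22e-06 to 0.0224), but the same knockdown arrays entered its choice. Alternatives that left out a hairpin tested only the remaining pair, and 0.0224 belongs to Brg1sh_4935 against Brg1sh_3364. Brg1sh_3232 minus Brg1sh_3364 stayed between -2.63 and -2.22 and Brg1sh_4935 minus Brg1sh_3232 between 1.80 and 2.20 under 19 alternatives each. Brg1sh_4935 minus Brg1sh_3364 was called after median centring (-0.45, adjusted p = 0.033), without dim genes (-0.43, 0.0374), with array weights (-0.43, 0.0261) and without Brg1sh_3232 (-0.43, 0.0224), and leaving out 1 array gave -0.52 to -0.34. The Car4 mean against Rluc was -2.30, -3.51 and -3.30 without Brg1sh_3232, Brg1sh_3364 and Brg1sh_4935. The other 5 members had 0 calls in every alternative that could be run, except for Car5b without Brg1sh_3364 replicate 2 and Car13 without Rluc replicate 2. The filter on dim genes left none of the 5. The Car6 fall became 0 calls without dim genes, with every probe set tested, with hairpin means as replicates, with hairpin as a random block, without each hairpin and at a threshold of 0.01 (0 to 1 over single-array leave-outs, as for rises). The filter on dim genes took Car6, Slc26a9, Slc26a6, Slc26a11, Cftr, Rhcg and Aqp3 out of the fit, so it did not retest their calls. Bicarbonate transporters had 0 rises without dim genes and 1 with the random block. They had 2 falls with quantile normalization, with centring and without Brg1sh_3232, and 0 without dim genes, with hairpin means and with the random block (1 to 2 over leave-outs). Proton and lactate transport had 1 rise with hairpin means and with the random block. Water and gas channels had 0 falls without dim genes, 1 with the replicate block, hairpin means, the random block, without Brg1sh_3364 and at 0.01, and 1 to 3 over leave-outs, with 1 to 2 rises. Enzymes that use bicarbonate had 1 fall with hairpin means and with the random block, and HIF targets had 0 with hairpin means and 1 with the random block. Over all genes, calls against Rluc were 2816 with hairpin means and 2557 with the random block, against 5635. At a threshold of 0.01 they were 2380, 3246 and 2813 for the 3 hairpins. Leave-outs gave 2473 (without its replicate 2) to 4136 for Brg1sh_3232 and 2673 to 4292 for Brg1sh_4935 (lowest 2 values without an array of its own). The F test called 1134 with every probe set tested, 1358, 80 and 1390 without Brg1sh_3232, Brg1sh_3364 and Brg1sh_4935, 775 at 0.01 and 677 to 2521 over leave-outs, against 2086. Rises were 47.1% of calls, 36.5% after centring and 45.4% after quantile normalization.

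Signs turned only for uncalled genes. Car2 was -0.0071 after centring and -0.0063 without Rluc replicate 2 (0.078 at most over single-array leave-outs), and Car13 was -0.0033 without Brg1sh_4935. Car3 was 0.019 without Brg1sh_3364. Car5a was -0.014 with quantile normalization and -0.018 after centring. Car7 was 0.017 without Brg1sh_3232 replicate 2, 0.035 without Brg1sh_3364 replicate 1 and 0.037 without Brg1sh_3364 (lowest leave-out -0.054). Car14 was 0.0055 without Brg1sh_4935 replicate 2 (lowest -0.038). Car15 was -0.026 with quantile normalization, -0.029 after centring, -0.0055 without Brg1sh_3232 replicate 2, -0.0016 without Brg1sh_4935 replicate 1 and -0.026 without Brg1sh_3364 (highest leave-out 0.033). Calls of genes that the filter on dim genes removed were lost for that reason. The cause of the other changes was not tested, and fewer arrays, genes or degrees of freedom enter several of these fits.

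Same-numbered arrays deviated together in 2 of 12 pairs only (r over 0.1, range -0.07 to 0.25), and 4 of 9 arrays correlated best with their own number. Rluc replicate 3 had no same-numbered array to match. The 2 arrays of a hairpin deviate from their mean as mirror images, so the 12 pairs are not independent. This check cannot settle whether arrays were paired, and the numbers were not taken to pair them. With the replicate block the Car4 mean was -2.98, its F test adjusted p was 0.000363 and 4712 genes were called. Among called genes named above, Slc26a11 (adjusted p 0.0598) and Aqp3 (0.0852) missed the threshold. Rluc replicate 3 is the only array with its number, so the block term absorbed it. Differences from Rluc with this block therefore equal those obtained without that array.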
